A study of Mus musculus with 7 samples.

Results

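Interferon regulatory factors are a family of transcription factors, and the transcripts of 8 of them (Irf1, Irf2, Irf3, Irf4, Irf5, Irf7, Irf8 and Irf9) were examined in macrophages sorted from mouse tumors. These 8 members were taken by Ensembl gene ID from the 24084 genes that the files listed in at least 1 library. The cells were F4/80+ tumor-associated macrophages, sorted from Lewis lung carcinomas grown under the skin (Lewis lung carcinoma is a transplantable mouse lung cancer line). One group, called Dicer1-deleted, had 3 libraries from LysM-Cre;Dicer-/- mice, which carried the Cre recombinase at the lysozyme M locus and lox-flanked Dicer alleles, both homozygous. The other, called control, had 4 libraries from LysM-Cre; Dicer+/+ mice, with the same homozygous Cre and intact Dicer. The mice received no drug, and their age, the size of the tumors and any pooling of animals were not given in the sources used here. The lysozyme M promoter is active in macrophages, monocytes and neutrophils, so the deletion was not specific to tumor macrophages. The comparison addressed how loss of Dicer1, the enzyme that cuts microRNA precursors into mature microRNAs, alters macrophages in a tumor. Whether the libraries are separate animals is not stated, so the p-values cover only the spread among these 7 libraries, which may be technical.

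All interferon regulatory factors share an amino-terminal DNA-binding domain that recognizes GAAA-containing sites, such as the interferon-stimulated response element (ISRE). Irf3, Irf5 and Irf7 are activated by kinases below Toll-like receptors and nucleic acid sensors, Irf9 binds DNA within the complex that type I interferons activate, and Irf1 is itself induced by interferon-gamma. Irf8 and Irf4 bind DNA mostly with partners of the Ets and AP-1 families. In macrophages Irf1, Irf5 and Irf8 are known for inflammatory gene programs, and Irf4 for the program that interleukin-4 induces.

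Of the 8 members, Irf8 was the one whose Dicer1-deleted libraries all lay above every control library, with a mean 2.42 times as high. The mean of Irf1 was 1.68 times as high and that of Irf4 lower, but for these and the remaining members the groups overlapped. In edgeR's quasi-likelihood test, with p-values adjusted over all genes by Benjamini-Hochberg, 0 of the 8 members passed at 0.05, where 0.0247% of the 16226 tested genes did. In DESeq2, a second count model used as an alternative, 1 member, Irf8, passed as higher, where 2.5% of tested genes passed in either direction and 0.924% as higher.

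To show what stands before the genes whose levels are described, promoters were read from RefSeq (GRCm38.p6), from 250 bases before to 50 bases after the start site. Entries were found for all 8 members, 11 promoters in all. Both strands were searched for TTCNNNGAA (GAS, the gamma-activated site bound by STAT dimers), GAAA, any 2 bases and GAAA (the core of an ISRE), and GGAA, any 2 bases and GAAA (the core of an Ets-IRF composite element). The promoters of Irf1, Irf2 and Irf8 are printed because they held at least 1 match, marked in capitals; the other 8 promoters, among them a second entry each for Irf1 and Irf8, held 0. They lie on the plus strand at chr11:53769764-53770063, chr8:46739495-46739794 and chr8:120736108-120736407.
Irf1: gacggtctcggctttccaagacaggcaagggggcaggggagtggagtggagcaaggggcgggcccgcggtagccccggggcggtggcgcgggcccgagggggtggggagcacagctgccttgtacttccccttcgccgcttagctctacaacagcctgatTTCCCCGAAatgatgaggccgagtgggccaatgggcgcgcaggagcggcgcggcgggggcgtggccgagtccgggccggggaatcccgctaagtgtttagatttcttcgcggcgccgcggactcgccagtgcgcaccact
Irf2: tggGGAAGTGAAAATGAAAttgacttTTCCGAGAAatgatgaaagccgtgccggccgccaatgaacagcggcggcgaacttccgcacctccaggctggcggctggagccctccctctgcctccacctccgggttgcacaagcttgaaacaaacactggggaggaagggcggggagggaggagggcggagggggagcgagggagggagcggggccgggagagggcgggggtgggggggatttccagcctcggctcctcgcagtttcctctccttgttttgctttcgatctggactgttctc
Irf8: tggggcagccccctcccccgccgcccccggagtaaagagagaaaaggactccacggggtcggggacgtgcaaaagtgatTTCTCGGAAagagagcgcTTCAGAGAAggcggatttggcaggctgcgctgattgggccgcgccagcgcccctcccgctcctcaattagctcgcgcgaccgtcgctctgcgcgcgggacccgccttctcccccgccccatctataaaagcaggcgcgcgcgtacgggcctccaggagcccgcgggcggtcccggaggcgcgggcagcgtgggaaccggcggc
The printed Irf1 promoter held 1 GAS match, TTCCCCGAA, and the printed Irf8 promoter 2, TTCTCGGAA and TTCAGAGAA. In the Irf2 promoter the ISRE core GAAAATGAAA overlapped the Ets-IRF core GGAAGTGAAA, and TTCCGAGAA stood after them. Of 32851 promoters of the same length, 8.3% held the GAS letters, 3.44% the ISRE core and 2.72% the Ets-IRF core. A match is a description of the letters and not a measured site of binding.

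**Figure D1:**
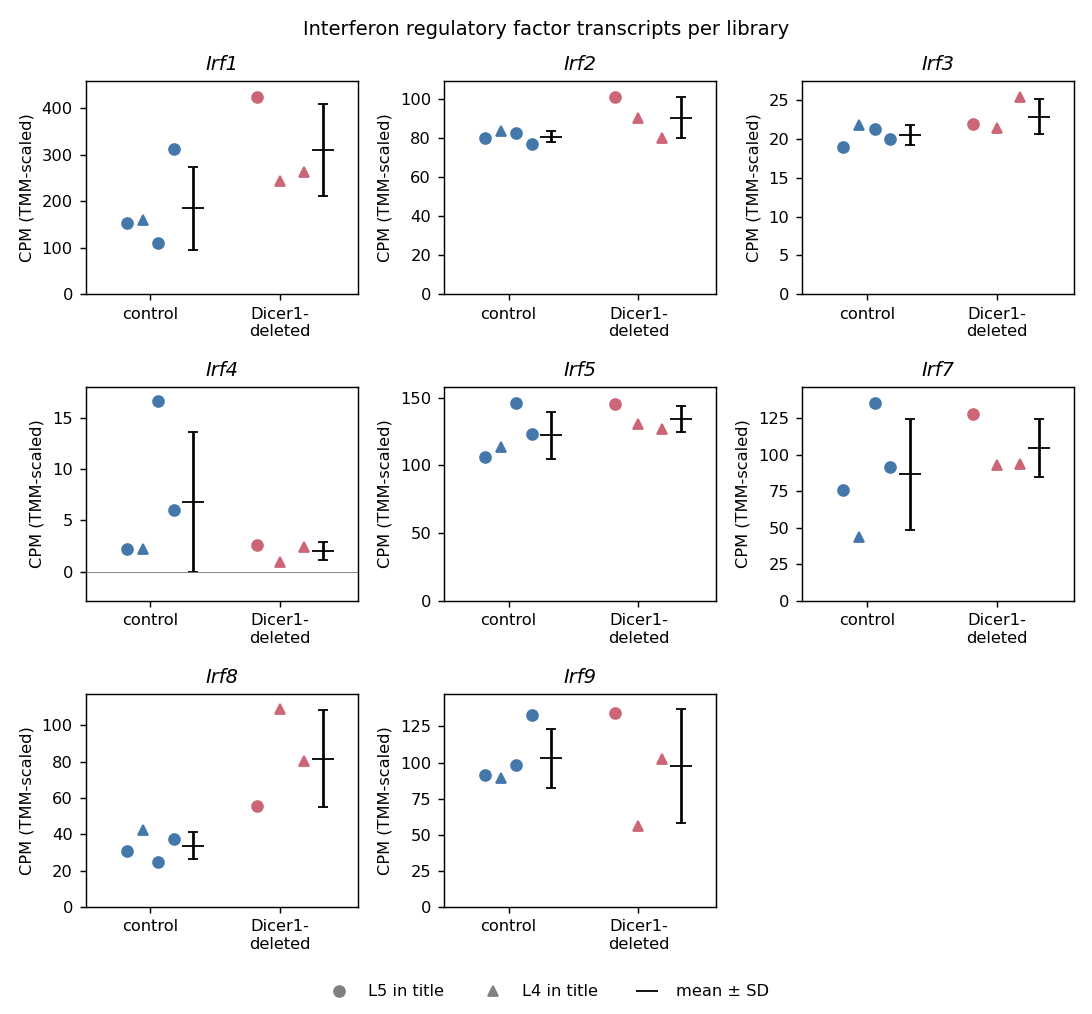
Counts-per-million (CPM, scaled by TMM, edgeR's trimmed-mean library factors) of each interferon regulatory factor in 4 control and 3 Dicer1-deleted libraries, 1 point per library, with mean and SD beside the points; circles and triangles stand for the L5 and L4 codes in the library titles. In the Irf8 panel the Dicer1-deleted libraries lie between 55.5 and 109 CPM and the control libraries between 24.8 and 42.3 CPM; in every other panel the groups overlap.

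Depth was 43.0 to 51.2 M uniquely placed reads per library. Dicer1 itself did not overlap between the groups, at 6.86 to 7.86 CPM against 15.7 to 18.6 CPM in controls, with a log2 fold change of -1.16 ± 0.23 (SE) and an adjusted p of 0.15 in edgeR and 4.96e-05 in DESeq2. The macrophage markers Csf1r (494 to 789 CPM against 553 to 809) and Adgre1, which encodes F4/80 (233 to 1072 against 418 to 798), were present in every library. Dicer1-deleted replicate 2 stood apart: it had the lowest Adgre1, the fewest genes listed (18888) and the lowest TMM factor (0.868).

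Irf8 is required for the development of monocyte-derived cells and of type 1 conventional dendritic cells, and acts with Spi1 (PU.1) and Batf3. Its level was 55.5, 109 and 80.3 CPM in Dicer1-deleted replicates 1 to 3 and 30.7, 42.3, 24.8 and 37.2 CPM in control replicates 1 to 4. The groups did not overlap, and 3.86% of tested genes were likewise higher without overlap. The means were 81.6 ± 26.7 and 33.7 ± 7.61 CPM (SD, n = 3 and 4). In edgeR the log2 fold change was 1.27 ± 0.30 (SE), with an unadjusted p of 0.00210 and an adjusted p of 0.207. It ranked 164 of 16226 genes by that p. In DESeq2 the log2 fold change was 1.30 ± 0.34 and the adjusted p 0.0108. Irf8 no longer passed in DESeq2 when Dicer1-deleted replicate 2 (log2 fold change 1.01, adjusted p = 0.0759) or 3 (adjusted p = 0.0614), or control replicate 1 (0.0862) or 3 (0.0684), was left out. With Dicer1-deleted replicates 1, 2 and 3 left out in turn, DESeq2 called 1.91%, 2.01% and 2.36% of all tested genes, and with control replicates 1 to 4 left out, 1.49%, 2.09%, 1.92% and 2.33%.

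The titles carry the code L4 or L5, whose meaning is not stated. Within L5, Irf8 was 1.8 times as high in Dicer1-deleted replicate 1 as in the mean of control replicates 1, 3 and 4. Within L4 it was 2.24 times as high in Dicer1-deleted replicates 2 and 3 as in control replicate 2. The groups did not overlap within either code, but held only 1 library against 3 (L5) and 2 against 1 (L4). Irf2, Irf3 and Irf9 were also higher without overlap within L5, and Irf5 and Irf7 within L4. The share of all genes that did so was not counted. With so few libraries, these separations are not read as a result about Irf8 or another member. With L code as a covariate in edgeR the log2 fold change was 0.99 and the adjusted p 0.426. Irf8 rested on 1362 to 4284 reads per library, and no other gene overlapped its exons.

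Irf4 pairs with the same Ets and AP-1 partners as Irf8 and drives interleukin-4-responsive macrophage genes, type 2 conventional dendritic cell functions and plasma cell differentiation. It was far less abundant, at 2.62, 0.965 and 2.43 CPM in Dicer1-deleted libraries and 2.22, 2.15, 16.6 and 5.97 CPM in controls. Control replicates 3 and 4 were high, and control replicates 1 and 2 lay within the Dicer1-deleted range. The log2 fold change was -1.75 ± 0.76 (SE), with an unadjusted p of 0.0454 and an adjusted p of 0.601 in edgeR, and 0.270 in DESeq2. Irf8 and Irf4 were the 2 members with an unadjusted edgeR p under 0.05, where 8.01% of tested genes had one. Without control replicate 3 the log2 fold change of Irf4 was -0.78. Irf4 rested on 38 to 912 reads.

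The balance of this pair was read as the log2 ratio of their CPM. The ratio of Irf8 to Irf4 was 4.41, 6.82 and 5.05 in Dicer1-deleted libraries and 3.79, 4.29, 0.58 and 2.64 in controls, so the groups did not overlap. The nearest values, 4.41 and 4.29, lay close together, and Irf8 alone already did not overlap between the groups. The mean log2 ratios were 5.42 ± 1.25 and 2.83 ± 1.65 (SD, n = 3 and 4), a difference of 2.59, which was 1.85 without control replicate 3. Across the 7 libraries the log2 levels of Irf4 and Irf8 had a Pearson correlation of -0.76, a description over libraries that share the group difference.

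Irf1, induced by interferon-gamma and an activator of antigen presentation and chemokine genes, had the highest mean level per length. It stood at 425, 243 and 263 CPM in Dicer1-deleted libraries and 154, 160, 111 and 313 CPM in controls. Control replicate 4 lay above Dicer1-deleted replicates 2 and 3, so the groups overlapped. The means were 310.3 ± 99.6 and 184.6 ± 88.7 CPM (SD, n = 3 and 4). The log2 fold change was 0.75 ± 0.39 (SE), and the adjusted p was 0.734 in edgeR and 0.572 in DESeq2. Without control replicate 4 it was 1.13 with an adjusted p of 0.410 in edgeR, and 1.15 with 0.0413 in DESeq2. Without Dicer1-deleted replicate 1 it was 0.45 in edgeR. Within the L codes Irf1 was 2.2 (L5) and 1.58 (L4) times as high, without overlap in either. The same limit of few libraries applied as for Irf8.

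Irf2, which binds the same sites as Irf1 and opposes it at many of them, was among the steadiest members. It measured 101, 90.2 and 80.2 CPM in Dicer1-deleted libraries and 79.9, 83.8, 82.4 and 77.2 CPM in controls. Its control coefficient of variation was 3.60%, against 48.0% for Irf1. The log2 fold change was 0.16 ± 0.22 (SE; edgeR adjusted p = 0.996). The log2 ratio of Irf1 to Irf2 was 2.07, 1.43 and 1.71 in Dicer1-deleted libraries and 0.95, 0.93, 0.42 and 2.02 in controls. Control replicate 4 alone among controls lay within the Dicer1-deleted range.

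**Figure D2:**
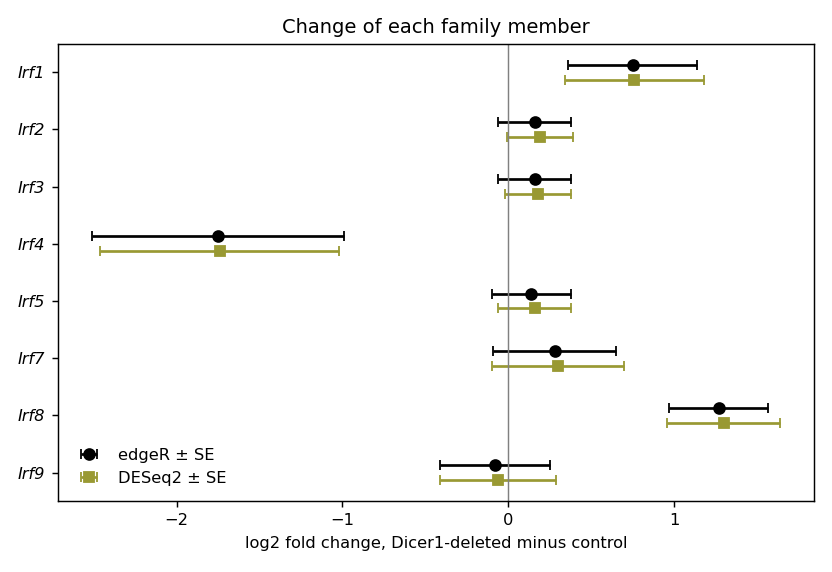
Log2 fold change of each member, Dicer1-deleted minus control, with SE, from edgeR (circles) and DESeq2 (squares). Irf8 has 1.27 in edgeR and 1.30 in DESeq2, and Irf4 has -1.75 with the SE of 0.76 that its spread in controls gives; Irf2, Irf3, Irf5 and Irf9 lie near 0.

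Irf3, the constitutive factor that induces interferon-beta after sensing of nucleic acids, measured 21.9, 21.4 and 25.4 CPM in Dicer1-deleted libraries. In controls it measured 19.0, 21.8, 21.3 and 20.1 CPM, overlapping the other group. The log2 fold change was 0.16 ± 0.22 (SE; edgeR adjusted p = 0.996).

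Irf7, which interferons induce and which amplifies interferon-alpha production, measured 128, 92.8 and 93.8 CPM in Dicer1-deleted libraries and 75.8, 43.3, 135 and 91.2 CPM in controls. Control replicate 3 was the highest of all libraries and control replicate 2 the lowest. The log2 fold change was 0.28 ± 0.37 (SE; edgeR adjusted p = 0.996), and 0.71 with L code as a covariate. Irf9, the DNA-binding subunit of the complex that type I interferons activate, measured 134, 56.3 and 102 CPM against 91.4, 89.2, 98.0 and 133 CPM. Dicer1-deleted replicate 2 was the lowest library and replicate 1 the highest. The log2 fold change was -0.08 ± 0.33 (SE; edgeR adjusted p = 0.996), and 0.19 without Dicer1-deleted replicate 2.

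Irf5, which acts below Toll-like receptors and Myd88 in inflammatory cytokine induction, measured 145, 131 and 127 CPM in Dicer1-deleted libraries and 106, 114, 146 and 123 CPM in controls. The groups overlapped, and the edgeR log2 fold change was 0.14 ± 0.24 (SE, adjusted p = 0.996). Irf4 can compete with Irf5 for Myd88. The log2 ratio of Irf5 to Irf4 was 5.8, 7.08 and 5.7 against 5.57, 5.72, 3.14 and 4.36, and control replicate 2 overlapped the Dicer1-deleted libraries.

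Of the 8 tested members, 6 had a positive log2 fold change and 2 a negative one, with a median of 0.16, where the median of all tested genes was 0.03 and 52.6% were positive. In bulk libraries, a change in the number of cells of a type and a change in RNA per cell cannot be told apart.

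Levels were compared between members per length, as the deposited RPKM. In controls the order by mean RPKM was Irf1 (45.8), Irf5 (41.8), Irf2 (32.2), Irf7 (28.7), Irf9 (19.0), Irf3 (6.37), Irf8 (4.70) and Irf4 (1.46). Neighbours Irf1 and Irf5, Irf2 and Irf7, Irf7 and Irf9, and Irf8 and Irf4 overlapped between libraries, while the other neighbours did not. In Dicer1-deleted libraries the mean RPKM of Irf8 was 10.8, above Irf3 at 6.89, so the order of these means changed. Their libraries overlapped, at 7.87 to 12.9 RPKM for Irf8 and 5.62 to 8.18 RPKM for Irf3. The lengths the authors divided by are not stated. The deposited values implied 7056 bases for Irf8 and 2484 bases for Irf2. The annotated exons of these genes cover 7055 and 7396 bases. Over the reference's longest transcripts, 5 of the 8 members kept their place in the order over all libraries. Irf2 moved from place 3 to 5, Irf7 from 4 to 3 and Irf9 from 5 to 4.

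**Figure D3:**
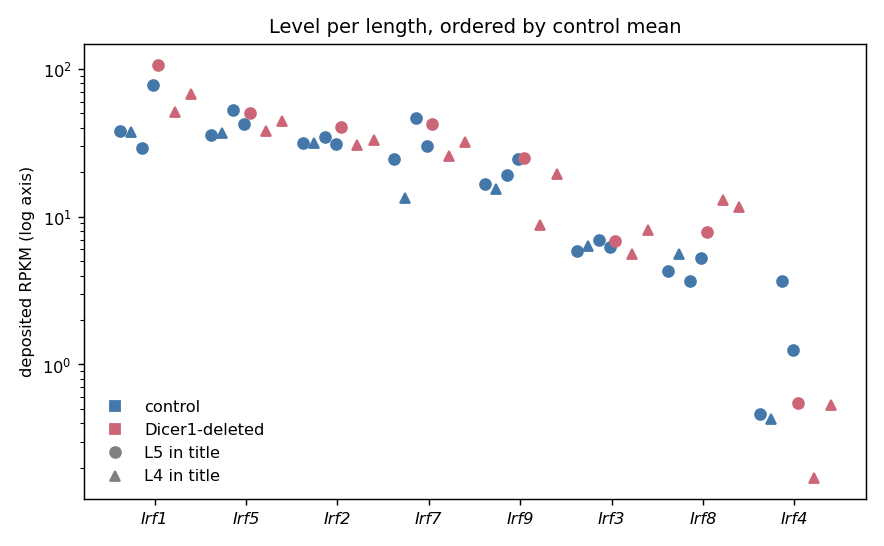
Deposited RPKM of 8 members on a log axis, ordered by the control mean, 1 point per library (blue control, red Dicer1-deleted; circles L5, triangles L4). Irf8 lies at 3.68 to 5.60 RPKM in controls and 7.87 to 12.9 RPKM in Dicer1-deleted libraries.

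Genes that followed each member most closely were ranked by the Pearson correlation of log2 CPM over the 7 libraries, among 7445 genes of at least 10 CPM (7446 for Irf4). These values describe libraries that share genotype, depth and cell mixture. They are the highest among all genes compared over only 7 libraries, so high values follow in part from that selection. The values expected for unrelated genes were not computed. Irf1 was followed by Cndp2 (0.956) and by the interferon-induced GTPases Gbp2 (0.954) and Gbp4 (0.945). Irf7 was followed by Oas3 (0.993), an interferon-induced sensor of double-stranded RNA, Nt5c3 (0.988) and Prdm1 (0.984). Irf8 was followed by Cd47 (0.992), the signal that restrains phagocytosis, Tmem134 (0.976) and the chemokine Cxcl16 (0.971).

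Irf4 was followed by Uap1 (0.968), St6gal1 (0.966) and Nol6 (0.960), and Irf5 by Svil (0.991), Cyb5b (0.989) and Traf3 (0.980). For Irf9 they were Nrbp1 (0.988), Tctn3 (0.978) and Zmynd11 (0.975), for Irf3 Tmem183a (0.972), Arhgap45 (0.965) and Wasf2 (0.961), and for Irf2 C3 (0.911), Dnmt1 (0.907) and Arap1 (0.884). Between members, Irf5 and Irf7 had a correlation of 0.80 and Irf1 and Irf8 of 0.56.

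Because Dicer1 makes microRNAs, the longest annotated 3' UTR of each member was searched for the complement of bases 2 to 8 of 12 microRNAs of myeloid cells. The microRNAs themselves were not measured. Irf8, Irf3 and Irf5 held 0 such sites, Irf1 held 2 (miR-125b-5p and miR-29a-3p) and Irf4 held 3 (miR-125b-5p, miR-23a-3p and miR-27a-3p). Irf7 held 1 (miR-142a-3p), Irf2 held 1 (miR-23a-3p) and Irf9 held 2 (miR-23a-3p and miR-27a-3p). The site of miR-125b-5p is printed because Irf1 and Irf4 both held it and lay on opposite sides of 0. Capitals mark the seed in the microRNA and its complement in the UTRs.
miR-125b-5p: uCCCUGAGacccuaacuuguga
Irf1 site: aatttggatcCTCAGGGagagcagcca
Irf4 site: tggtccatttCTCAGGGaagtaaagtc
Of UTRs of similar length, 10.3% held this site for Irf1 and 28.4% for Irf4. A match of letters is not a measured interaction.

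Genes around the family were followed in 8 lists of 108 distinct genes, 104 of them tested. The lists were chosen with earlier results of these data known. Their counts beside those of all genes are therefore a description and not a test. In edgeR 0 passed when adjusted over all genes. An unadjusted p under 0.05 was found for 26, where 8.01% of all tested genes had one. In DESeq2 8 passed as higher and 6 as lower, where 0.924% and 1.57% of all tested genes did. The median log2 fold change of the 104 genes was 0.21, and 69 were positive. Over all tested genes the median was 0.03 and 52.6% were positive.

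**Figure D4:**
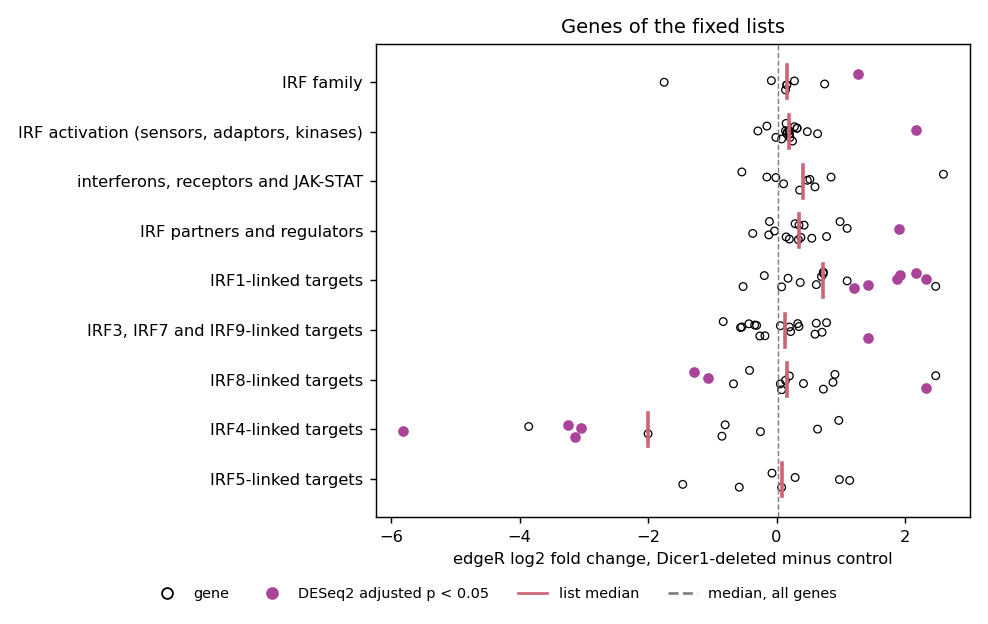
Log2 fold change in edgeR of every tested gene in the family and in the 8 lists, 1 point per gene, filled where DESeq2 gave an adjusted p under 0.05, with the list median as a red bar and the median of all genes dashed. Points of the IRF1-linked list reach furthest to the right as a group (median 0.73), and those of the IRF4-linked list lie furthest to the left (median -2.0).

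Targets linked to Irf1 (antigen processing, guanylate-binding proteins and chemokines that attract T cells) were the list with most DESeq2 rises. Of 17 tested genes, 6 rose in DESeq2, 0 fell and 15 were positive, with a median of 0.73. Of all tested genes 0.924% rose in DESeq2 and 52.6% were positive. Cxcl10, a ligand of the receptor Cxcr3, measured 483, 837 and 406 CPM in Dicer1-deleted libraries and 231, 220, 187 and 217 CPM in controls (log2 fold change 1.43 ± 0.30; adjusted p 0.162 in edgeR and 0.00116 in DESeq2). Its relatives were also higher in every Dicer1-deleted library: Cxcl9 measured 311, 510 and 193 CPM against 101, 77.2, 8.50 and 111 CPM, and Cxcl11 11, 12.6 and 7.04 CPM against 2.68, 2.65, 3.43 and 2.42 CPM. Their DESeq2 adjusted p-values were 0.0471 and 6.50e-06. Il18bp, the soluble inhibitor of interleukin-18, measured 87.1, 223 and 61.2 CPM against 33.2, 39.9, 14.5 and 42.9 CPM (DESeq2 adjusted p = 0.0143).

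The other 2 genes that rose, named after their values were seen, were Tap1, a peptide transporter of antigen presentation, with a log2 fold change of 1.21 (DESeq2 adjusted p = 0.000969), and the cytokine subunit Il27, with 2.33 (0.00115). Of the 17 tested genes of the list, 6 were higher without overlap, where 3.86% of all tested genes were. They were the same 6 that rose in DESeq2. Without Dicer1-deleted replicate 2 the DESeq2 calls were 3 (Tap1, Cxcl10 and Cxcl11). With single libraries left out, the list's median ranged from 0.68 (without Dicer1-deleted replicate 1) to 1.34 (without control replicate 4).

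The list of interferons, receptors and JAK-STAT members had 10 tested genes, of which 7 were positive and 0 passed in DESeq2, with a median of 0.42. Ifngr2, a chain of the interferon-gamma receptor, measured 97.0, 103 and 107 CPM in Dicer1-deleted libraries and 62.3, 67.1, 74.3 and 67.4 CPM in controls, without overlap. Its adjusted p was 0.462 in edgeR and 0.0526 in DESeq2. Interferon-gamma itself was low, with Ifng at 1.29, 0.152 and 0.427 CPM against 0, 0.0449, 0 and 0.365 CPM, with overlap. Its log2 fold change was 2.6 ± 1.39 (SE), with an adjusted p of 0.746 in edgeR and 0.647 in DESeq2. Markers of T and NK cells, which make interferon-gamma, summed to 10.7 to 23.4 CPM in Dicer1-deleted libraries and 12.2 to 14.3 CPM in controls, led by Cd2, Nkg7 and Cd4. Of 12 tested markers 9 were positive, with a median log2 fold change of 1.32. Nkg7 rose in DESeq2, with means of 3.95 and 1.18 CPM (adjusted p = 0.0410), and Cd2 fell, with 1.69 and 5.50 CPM (adjusted p = 0.000743). Cd3g was higher without overlap, and the log2 fold change was 1.79 ± 0.60 (SE) for Cd8a and 2.52 ± 0.80 for Gzmb, but these 3 did not pass in DESeq2. The part of these cells in the Irf1 values was not tested.

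Sensors, adaptors and kinases that activate the family had a median of 0.20 over 18 genes, and 1 rose in DESeq2. This was Tlr9, the receptor for unmethylated DNA, named after its values were seen, with 6.64, 4.37 and 8.32 CPM against 1.30, 1.75, 1.90 and 0.775 CPM (DESeq2 adjusted p = 6.65e-05). Targets linked to Irf3, Irf7 and Irf9, the type I interferon response genes, showed no common direction. Of 18 genes 10 were positive and 8 negative, with a median of 0.13, and 1, Cxcl10, passed in DESeq2. The median was -0.13 without control replicate 2 and 0.45 without control replicate 3. Targets linked to Irf5 had 4 positive and 3 negative genes, a median of 0.08 and 0 DESeq2 calls. That median ranged from -0.22 to 0.71 when single libraries were left out.

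Among 16 partners and regulators, 12 were positive with a median of 0.34, and 1 rose in DESeq2. This was Batf3, the AP-1 partner of Irf8, named after its values were seen, with 1.83, 4.73 and 2.43 CPM against 0.545, 0.583, 1.31 and 0.729 CPM (DESeq2 adjusted p = 0.0191). Targets linked to Irf8 were split: of 14 genes 10 were positive, with a median of 0.17, and in DESeq2 1 rose (Il27) and 2 fell. Klf4, a myeloid transcription factor, fell in DESeq2, from 136, 140, 169 and 206 CPM in controls to 75.9, 73.2 and 82.8 CPM (adjusted p = 0.00298, and 0.214 in edgeR). Lyz2, which encodes lysozyme M, fell in DESeq2 from 134, 212, 107 and 103 to 53.0, 67.2 and 50.7 CPM (adjusted p = 0.0144). Its locus carries the Cre in both groups. Cxcl16 measured 360.3, 668 and 579 CPM against 284, 356, 193 and 329 CPM, with an adjusted p of 0.462 in edgeR and 0.174 in DESeq2.

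Targets linked to Irf4 lay mostly below 0. Of 11 tested genes 9 were negative, with a median of -2.0, and 4 fell in DESeq2, where 1.57% of all tested genes fell. Retnla, a marker of interleukin-4-activated macrophages, measured 1.79, 2.69 and 2.13 CPM in Dicer1-deleted libraries and 17.3, 14.3, 42.3 and 3.78 CPM in controls (log2 fold change -3.14 ± 0.71; adjusted p 0.181 in edgeR and 0.000241 in DESeq2). Ccl22, a chemokine of dendritic cells and macrophages, measured 2.82, 1.02 and 0.896 CPM against 15.8, 2.92, 30.1 and 3.42 CPM, and Ccr7, the receptor of migrating dendritic cells, 1.04, 1.47 and 0.427 CPM against 8.01, 1.62, 25.2 and 2.37 CPM. Their DESeq2 adjusted p-values were 0.00786 and 0.00999. The remaining gene that fell was Ccl17, named after its values were seen. For the genes given by library, control replicate 3 was the highest, as it was for Irf4. Without it the list's median was -1.12 and Retnla was the 1 gene still called in DESeq2.

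Markers of dendritic cells were read beside Irf8 and Irf4. Of 10 markers of type 1 conventional dendritic cells, 3 were higher without overlap (Xcr1, Clec9a and Batf3), where 3.86% of tested genes were, and their summed level was 219.6 to 444.7 CPM in Dicer1-deleted libraries and 119.0 to 326.3 CPM in controls, with overlap. Of the 10, 8 were positive and 2 rose in DESeq2 (Xcr1 and Batf3), while Flt3 and Zbtb46 had log2 fold changes of -1.64 ± 1.73 and -0.93 ± 0.67 (SE). Xcr1 measured 5.27, 2.64 and 5.51 CPM against 0.880, 0.539, 0.474 and 1.5 CPM. The library with the highest Irf8, Dicer1-deleted replicate 2, had the lowest Xcr1 of its group but the highest Batf3 and, by a small margin, Clec9a. Flt3 was at 0 in Dicer1-deleted replicates 1 and 2 and in control replicate 2. Most of the sum came from Naaa, Cadm1 and Wdfy4, which macrophages may also express. The part of these cells in the Irf8 result was not tested.

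The 10 markers of type 2 and migratory dendritic cells summed to 141.0 to 166.5 CPM in Dicer1-deleted libraries and 126.7 to 496.7 CPM in controls, highest in control replicate 3, and 3 of them (Ccr7, Ccl17 and Ccl22) were lower without overlap, where 5.44% of tested genes were. These 3 fell in DESeq2, and of the 10 markers 7 were negative and 3 positive. Cd1d1 went the other way, with means of 25.1 CPM in Dicer1-deleted libraries and 9.53 CPM in controls (log2 fold change 1.39 ± 0.42, adjusted p 0.331 in edgeR and 0.0755 in DESeq2). Cd209a measured 3.74, 1.02 and 3.16 CPM against 38.1, 4.35, 109 and 2.51 CPM. The list shares Cd209a, Mgl2, Ccr7, Ccl17 and Ccl22 with the Irf4-linked list. The part of these cells in the Irf4 values was not tested.

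**Figure D5:**
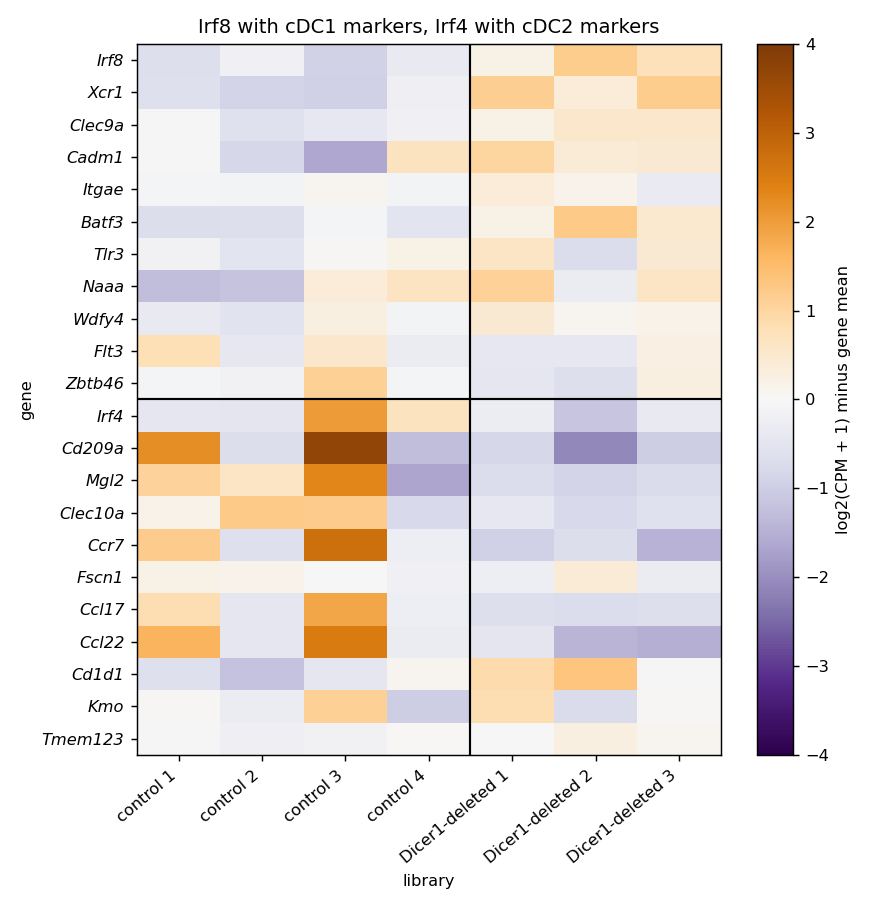
Log2(CPM + 1) minus the gene's mean over the 7 libraries, for Irf8 with 10 type 1 dendritic cell markers (upper block) and Irf4 with 10 type 2 and migratory dendritic cell markers (lower block); control libraries are left of the black line. Control replicate 3 is the darkest orange for Irf4, Cd209a, Mgl2, Ccr7, Ccl17 and Ccl22, while Irf8, Xcr1, Clec9a and Batf3 are above their mean in all 3 Dicer1-deleted libraries.

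The members' genes lie, in GRCm38 (GENCODE M21), on chromosome 11 at 53770014 to 53778374 (Irf1), chromosome 8 at 46739732 to 46847458 (Irf2) and at 120736358 to 120756694 (Irf8), and chromosome 7 at 44997648 to 45002848 (Irf3) and at 141262706 to 141266481 (Irf7). Irf4 lies on chromosome 13 at 30749226 to 30766976, Irf5 on chromosome 6 at 29526625 to 29541871 and Irf9 on chromosome 14 at 55603571 to 55610030. The library kit keeps no strand, so reads of overlapping genes cannot be told apart. Irf5 shared 14.1% of its exon bases with Tnpo3 on the opposite strand. Irf1 shared 3.4% with Gm17334, Irf3 2.56% with Bcl2l12, Irf9 2.28% with Rnf31 and Irf7 1.19% with Phrf1, while Irf2, Irf4 and Irf8 shared none.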

How the data were processed

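The deposited files hold, per the file headers, counts of uniquely placed reads per gene, expected counts that the authors made by adding shares of multiply placed reads, and RPKM. Per the submitters' processing notes Bowtie2 was used. Its version and the genome build, annotation, counter and RPKM lengths were not given in the sources used here. Per the labels, cDNA was amplified from low-input RNA with the SMARTer kit and no molecular identifiers, so reads are not independent molecules. All counts were even, so a read pair counts as 2 reads.

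Genes not listed in a library were set to 0 there (31124 values). Symbols came from GENCODE M21 for 21813 IDs, leaving 2271 without. Unique counts were tested over all genes in edgeR 4.0.16 (R 4.3.3; filterByExpr, TMM, quasi-likelihood F test, no covariate, Benjamini-Hochberg at 0.05), with DESeq2 1.42.0 and limma-voom 3.58.1 as alternatives. The biological coefficient of variation was 45.1%. The workflow was tested on simulated data. Sites and promoters were searched in Python 3.11.15.

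Members and lists were chosen with earlier results of these data known. Named list genes were those called by edgeR or, failing that, up to 4 per list with the largest fold changes among genes of at least 5 CPM whose groups did not overlap. From marker lists they were the 3 most abundant genes, and for each member the 3 genes with the closest pattern. Other marker genes, such as Xcr1, Clec9a, Flt3, Cd1d1, Cd209a, Cd3g, Gzmb and Siglech, were named outside this rule with their values known. Read pairs, limma-voom with quality weights and DESeq2 without each library were added after seeing the data. Psmb9, Blk, Krt14 and Sftpc were not analysed here, and some items are not reported here.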

Additional observations from a re-analysis of the deposited data

How the results depend on the processing

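Over 24 alternatives, Irf8 was higher in all 24, with a log2 fold change of 0.99 to 1.53 and an adjusted p of 0.00412 to 0.546, passing in 4, all DESeq2. Irf1 was higher in all 24 (0.45 to 1.15) and passed in 1, DESeq2 without control replicate 4. Irf4 was lower in all 23 that gave it a value (-2.03 to -0.78). Of 191 member values 180 kept direction and side of the threshold. Irf9 ranged from -0.38 to 0.20 and turned positive in 6: 0.09 with L code as a covariate, 0.18 with quality weights, 0.19 without Dicer1-deleted replicate 2, 0.07 without control replicate 4, and 0.20 and 0.09 in DESeq2 without the same libraries; the cause was not tested.

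Members called numbered 0 in edgeR and 1 in DESeq2. With Dicer1-deleted replicates 1 to 3 and control replicates 1 to 4 left out in turn, DESeq2 called 1, 0, 0, 0, 1, 0 and 2 members, 10, 8, 11, 7, 13, 11 and 15 pathway genes and 319, 338, 396, 237, 333, 304 and 370 of all genes. Pathway genes called numbered 0 in edgeR, 14 in DESeq2, 1 without a count filter and 2 with quality weights. Over all genes edgeR called 4 (0 to 3 with single libraries left out), against 405 in DESeq2, 2 in limma-voom, 80 with quality weights, 42 without a count filter, 1 with the filter of 10 CPM in 3 libraries and 0 with L code as a covariate. The difference in log2 ratio was 0.44 to 0.97 for Irf1 to Irf2, 1.85 to 3.11 for Irf8 to Irf4 and 0.97 to 1.84 for Irf5 to Irf4 with single libraries left out. Over the longest transcripts 5 of 8 members kept their place. No paired analysis was possible because the replicate numbers only name libraries in accession order, and nothing in the labels pairs a library of one group with one of the other. Irf4 rested on as few as 38 reads in a library, and its control coefficient of variation was 101%; the share of depth in that spread was not tested.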

Other observations

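Other marker lists varied beside the family. Summed neutrophil markers, led by Mmp8, Retnlg and Csf3r, were 156.6 to 233.1 CPM in Dicer1-deleted libraries and 63.4 to 139.4 CPM in controls, without overlap, while Ly6g, Elane and Mpo were near 0. Summed B cell markers, led by Bank1, Cd79b and Cd22, were 44.6 to 56.7 CPM against 14.8 to 23.4 CPM, with Cd79a and Pax5 at or near 0. Plasmacytoid dendritic cell markers summed lower, at 72.2 to 107.8 CPM against 144.6 to 179.7 CPM, led by Tcf4, Runx2 and Cox6a2, with Siglech at most 0.58 CPM. Fibroblast and endothelial markers, led by Pecam1, Dcn and Col3a1, summed to 51.9 to 95.4 CPM against 24.4 to 40.8 CPM. Of these lists' genes, Mmp8, Cd79b, Bank1 and Pecam1 rose in DESeq2 and Tcf4 fell, where 0.924% of all tested genes rose and 1.57% fell. Whether these cell types were present, and their part in the values of the family, was not tested.

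The sums of the remaining lists overlapped between the groups. Macrophage markers, led by C1qb, Cd14 and Cd68, summed to 13534 to 20724 CPM against 13472 to 21359 CPM. Of the 11 macrophage markers, 2 (Lyz2 and Cd14) were lower without overlap, where 5.44% of tested genes were. Plasma cell markers, from cells that express Irf4 and led by Xbp1, Prdm1 and Sdc1, summed to 172.4 to 286.2 CPM against 144.7 to 262.2 CPM. Epithelial and tumor cell markers, led by Cdh1, Krt8 and Ovol1, summed to 6.4 to 9.65 CPM against 2.33 to 13.4 CPM.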
